A study of Rattus norvegicus with 232 samples.

Results

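The clustered protocadherin genes of the rat were described across the brains of the Hybrid Rat Diversity Panel. Members were all rows of the newest gene table (version 7.1, RefSeq annotation) whose symbol starts with Pcdha, Pcdhb or Pcdhg. There were 36 members among 20859 genes tested, namely 2 Pcdha, 19 Pcdhb and 15 Pcdhg genes. A further 39 rows of the matching transcript table, of 45918 transcripts tested, were isoforms of 27 of these genes, and 9 members had no isoform row.

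The labels describe total RNA, depleted of ribosomal RNA, from the whole brain of naive rats, that is, rats with no treatment. For its own set of strains, which had no FXLE/LEXF RNA, the study states that a single sagittal side of each brain of young adult males was sequenced. There, HXB/BXH and progenitor brains were shipped from the Czech Republic in liquid nitrogen. Brains of the other inbred strains, bought from 2 breeders, were taken in Colorado and kept in RNAlater. The version 7.1 table holds 214 libraries of 197 animals and 74 strains, with 3 animals in 54 strains, 2 animals in 15 and 1 animal in 5. The HXB/BXH recombinant inbred strains (30 strains, 88 animals) go back to a cross of BN-Lx/Cub with SHR/OlaIpcv. The FXLE/LEXF recombinant inbred strains (19 strains, 43 animals) go back to a cross of F344/Stm with LE/Stm. The remaining 25 inbred strains (66 animals) include these 4 progenitors. No strain carries an engineered allele by its label, and for 148 of the 232 samples in the labels the sex is given, as male. The animals of a strain share a genotype, so a difference between strains that exceeds the spread within strains can be inherited. Where source and handling also went with strain, their part cannot be told apart. The study called the share of variance between strains broad-sense heritability.

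Clustered protocadherins are cadherin-type adhesion proteins of the neuronal surface, encoded by 3 neighbouring groups of genes. In the Pcdha and Pcdhg groups, each variable first exon has its own promoter and is spliced to constant exons that the group shares, whereas a Pcdhb gene is a single exon. Most neurons switch on a small random set of the variable exons, while the C-type genes (Pcdhac and Pcdhgc) are used more uniformly, and the proteins of a cell pair in mixed dimers that recognise the same set on another membrane. This recognition is known for self-avoidance of dendrites and axons, and the Pcdhg genes also for the survival of interneurons. In a bulk sample, fewer cells that use a gene and less RNA per cell cannot be told apart.

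All values below are RNA expression levels on the authors' log2 scale, so a difference of 1 is a doubling on that scale. Brain was checked by lists of marker genes of its cell types. The mean over the 5 neuronal markers was 13.44 to 13.95 in every animal, and of the 2 markers of olfactory sensory neurons, which also use protocadherin choice, Omp was at 2.31 to 4.09 and Gng13 at 8.88 to 10.17. The single LE/Stm animal stood apart, with a mean of 19.28 over the 5 liver genes against a median of 8.08 over animals, and every LE/Stm value below is that of this animal. Without it and the 3 LEW/Crl animals, the same number of members, 28, passed the test of a strain effect described below, when 36.4% of all genes passed. These animals were set aside with earlier results of these data known.

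Reads of the shared constant exons, and of Pcdhb genes that are much alike, may have been divided between members by the authors' counting. Each member's level is uncertain to that extent, which was not measured here. In this annotation Pcdha4, with 11 isoforms in the transcript table, may stand for most of the Pcdha group, and Pcdhac1 is the other row. Pcdhac2 and Pcdhgc4 were not rows of the table and were not analysed here under these symbols. LOC108348201, which carries the symbol Pcdhb15 in the reference gene table, is no member by its symbol in the file; its strain R2 was 0.568 (adjusted p = 0.00042, limma F-test).

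The promoters of Pcdhga1, Pcdhga2, Pcdhga10 and Pcdhb3 are shown because strains differed most in these genes of the Pcdhg and Pcdhb groups. The sequences are from RefSeq (GRCr8, plus strand, 5′ to 3′) and run from 250 bases before the annotated start to 50 bases after it. Pcdhb3 lies at chr18:29285425-29285724, Pcdhga1 at chr18:29738389-29738688, Pcdhga2 at chr18:29744939-29745238 and Pcdhga10 at chr18:29825676-29825975. Capitals mark CGCT on either strand (AGCG when read on the plus strand), GCTGTTCACC, which shares 3 letters with CGCT where they overlap, and GGTGGCGCTG, which contains CGCT.
Pcdhb3: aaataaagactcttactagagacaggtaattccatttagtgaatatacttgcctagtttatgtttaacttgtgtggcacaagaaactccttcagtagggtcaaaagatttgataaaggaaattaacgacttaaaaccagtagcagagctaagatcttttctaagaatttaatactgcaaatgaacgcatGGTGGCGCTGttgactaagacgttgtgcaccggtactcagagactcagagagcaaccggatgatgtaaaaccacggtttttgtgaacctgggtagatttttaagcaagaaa
Pcdhga1: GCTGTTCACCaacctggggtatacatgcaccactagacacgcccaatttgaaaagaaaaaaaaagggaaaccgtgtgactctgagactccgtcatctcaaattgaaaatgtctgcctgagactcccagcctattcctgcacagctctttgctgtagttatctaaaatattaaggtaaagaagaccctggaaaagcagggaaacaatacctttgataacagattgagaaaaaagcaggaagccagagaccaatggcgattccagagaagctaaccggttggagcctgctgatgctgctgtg
Pcdhga2: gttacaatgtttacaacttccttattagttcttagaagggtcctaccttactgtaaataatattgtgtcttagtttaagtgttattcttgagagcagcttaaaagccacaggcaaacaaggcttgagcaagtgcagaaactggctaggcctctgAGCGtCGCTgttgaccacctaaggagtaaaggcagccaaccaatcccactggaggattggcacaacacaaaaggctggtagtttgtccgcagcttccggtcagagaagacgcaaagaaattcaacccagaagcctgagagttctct
Pcdhga10: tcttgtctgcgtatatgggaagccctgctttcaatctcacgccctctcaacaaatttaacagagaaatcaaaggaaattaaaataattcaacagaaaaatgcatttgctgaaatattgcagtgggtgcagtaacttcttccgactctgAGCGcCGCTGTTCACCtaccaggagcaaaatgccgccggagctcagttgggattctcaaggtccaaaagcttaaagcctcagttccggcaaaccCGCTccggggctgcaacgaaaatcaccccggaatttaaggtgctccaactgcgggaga

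CGCT is the core of a conserved sequence element in many clustered protocadherin promoters, and it is also frequent in all promoters. It was found on either strand in 60.9% of 33469 promoters of this length, in 15 of 17 Pcdhb promoters and in 11 of 15 Pcdhg promoters. The longer GGTGGCGCTG was found in 0.221% of all promoters and in 14 of 17 Pcdhb promoters, against 0 of 15 Pcdhg promoters. GCTGTTCACC was found in 0.12% of all promoters and in 7 of 15 Pcdhg promoters, against 0 of 17 Pcdhb promoters. Both longer strings were chosen on these promoters, each as the run of 10 letters held by more promoters of the Pcdhb or the Pcdhg group than any other run, and were searched on both strands, so their counts only describe them. The window of Pcdhga1 starts with GCTGTTCACC and contains no CGCT, which says only that these letters are not in this window. A C before that first base, which would make CGCT as in Pcdhga10, would lie outside the window. From its annotated start the printed sequence reads atggcg, so this start may be that of the coding sequence rather than of transcription. Pcdhga1 is still counted above among the Pcdhg promoters without CGCT. A promoter matched by symbol for 32 members and not for 4.

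Over all strains, 28 of 36 members passed the test of a strain effect (limma moderated F-test, Benjamini-Hochberg adjusted p over all genes, 5% false discovery rate), where 37.3% of all genes tested passed. By group these were 0 of 2 Pcdha, 15 of 19 Pcdhb and 13 of 15 Pcdhg genes, and both Pcdha genes had an unadjusted p under 0.05, as had 48.3% of all genes. The median R2, the share of the total sum of squares that lies between strains, was 0.546 over the members and 0.451 over all genes. With 74 strains and 197 animals, a gene with no strain effect is expected to have an R2 of 0.372. The median was 0.466 for Pcdha, 0.517 for Pcdhb and 0.586 for Pcdhg. The count was 15, 14 and 18 without the animals numbered 1, 2 and 3, when 15.9%, 14.4% and 29.1% of all genes passed, and 33 with batch as a covariate, when 58.7% of all genes passed.

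The differences themselves were small for most members, though not for Pcdhga1. The strain means of a member spanned between 0.30 (Pcdhb1) and 2.21 (Pcdhga1), with a median span of 0.62. The median within-strain SD was 0.133 over the members and 0.162 over all genes, and the 12 libraries of a single SHR/OlaIpcv animal had a median SD of 0.132 over the members. Repeat libraries of that animal thus varied by about as much as animals of 1 strain did. Both spreads include batches, since the 12 libraries come from 12 batches and 62 of the 69 strains with 2 or more animals have libraries in 2 or more batches. The lowest strain of a member had only 1 animal for 12 members and the highest strain for 10. BUF/MnaMcwi, with 1 animal, was the lowest strain for 6 members and the highest for 5.

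**Figure D1:**
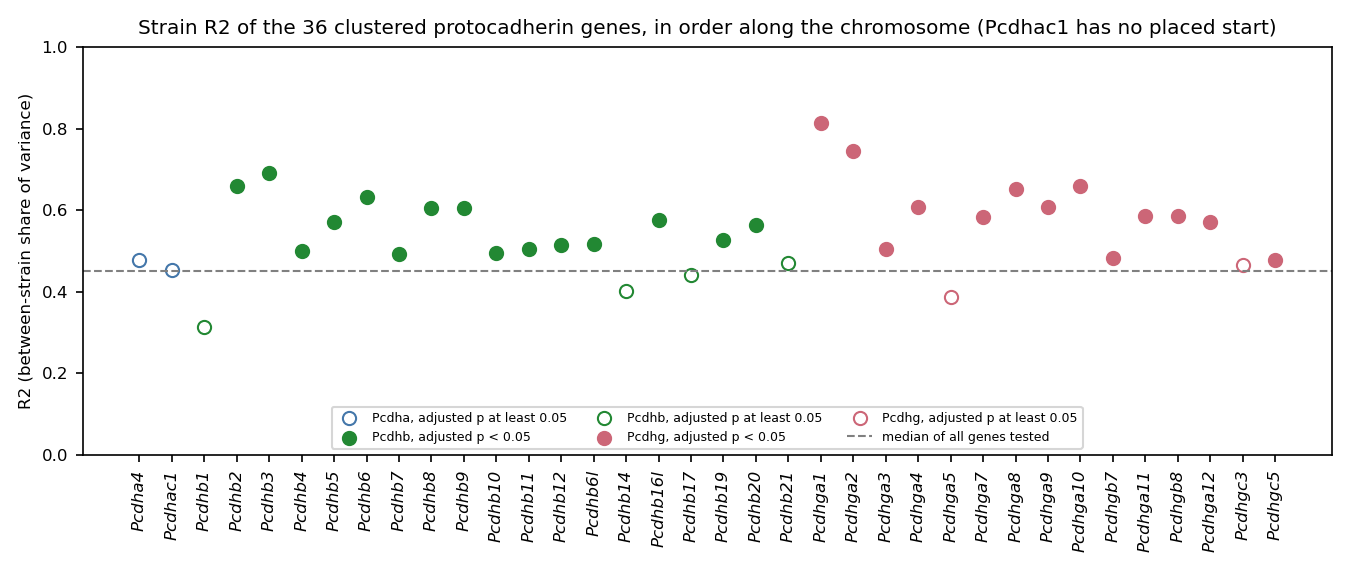
Strain R2 (y axis, share of the variance between 74 strains) of each of the 36 members (x axis, ordered by their start on the chromosome, with Pcdhac1, which has no placed start, beside Pcdha4). Filled points passed the test, open points did not, and the dashed line is the median of all genes, 0.451. Pcdhga1 and Pcdhga2, which are neighbours, have the highest R2.

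Pcdhga1, the first A-type gene of the Pcdhg group, differed most between strains. Its R2 was 0.813 (adjusted p = 3.07e-21, limma), and its strain means ran from 5.33 in FXLE13/Stm (n = 1) over a median of 6.14 to 7.54 in LH/MavRrrc. The 3 LH/MavRrrc animals were at 7.58, 7.58 and 7.46. Within panels, the R2 was 0.922 in FXLE/LEXF (adjusted p = 3.37e-08), 0.858 in the inbred strains (adjusted p = 2.81e-10) and 0.383 in HXB/BXH (adjusted p = 0.32, limma). Whether the panels differ in R2 was not tested.

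In the FXLE/LEXF strains the levels of Pcdhga1 fell into separate sets. The strain means were 6.99 to 7.43 in 7 strains (FXLE14, FXLE20, LEXF2B, LEXF7B, LEXF10A, LEXF10B and LEXF11) and 5.33 to 6.49 in the other 12. The 3 animals of LEXF10A/Stm, the highest strain, were at 7.35, 7.46 and 7.49. The strain just below the gap, LEXF2C/Stm, had animals at 6.99, 6.94 and 5.54, so that 2 of its animals lay within the range of the upper strains and 1 among the lower strains. A normal mixture fitted by mclust chose 3 clusters, of 10, 2 and 7 strains with means of 5.60, 6.32 and 7.22. Of the progenitors, F344/Stm had animals at 6.17, 5.93 and 6.30, and the LE/Stm animal was at 7.37.

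The sets were cut at the largest gap in the strain means of Pcdhga1, so their separation within sequencing batches is partly built in. All 5 batches with FXLE/LEXF animals held animals of both sets. In 4 of the 5 every animal of an upper strain was above every animal of a lower strain. In batch 19, the lowest upper animal was at 7.01 and the highest lower animal at 6.94. In batch 20, with 6 upper and 8 lower animals, these were at 6.7 and 6.99, so the sets overlapped. With batch as a covariate within the panel, the R2 of Pcdhga1 was 0.928 (adjusted p = 1.13e-07, limma).

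Pcdhga2, the next gene along the chromosome, was low in the strains in which Pcdhga1 was high. Of the 7 upper strains of Pcdhga1, 6 were among the 7 lowest in Pcdhga2. With LEXF2C/Stm, the strain just below the gap, the 8 FXLE/LEXF strains highest in Pcdhga1 were the 8 lowest in Pcdhga2, a number chosen after the values were seen. Pcdhga2 was at 9.96 to 10.25 in the 7 upper strains of Pcdhga1 and at 10.15 to 10.60 in the lower 12. Its animals in LEXF10A/Stm were at 9.99, 10.03 and 9.86. In LEXF2C/Stm the animal low in Pcdhga1 had the highest Pcdhga2 of its strain: the animals were at 10.09, 9.91 and 10.46, in the same order as above. For the progenitors, Pcdhga2 was at 10.41, 10.37 and 10.47 in F344/Stm and at 9.91 in LE/Stm. The R2 of Pcdhga2 within the panel was 0.81 (adjusted p = 0.0013, limma), and 0.822 with batch as a covariate (adjusted p = 0.00222, limma).

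**Figure D2:**
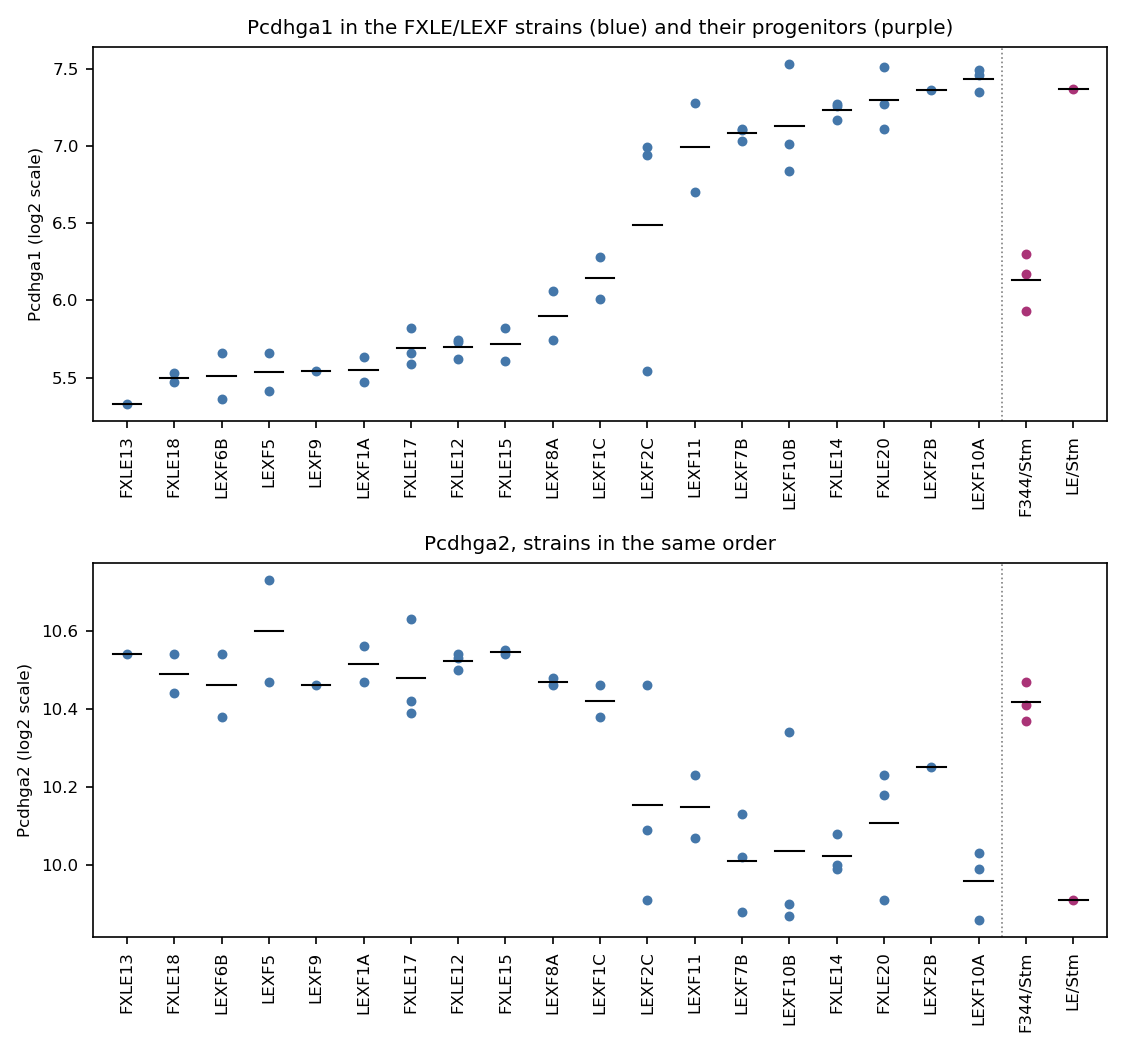
RNA expression level (y axis, log2 scale) of Pcdhga1 (top) and Pcdhga2 (bottom) in each animal of the 19 FXLE/LEXF strains and of the progenitors F344/Stm and LE/Stm (x axis, both panels ordered by the strain mean of Pcdhga1). Points are animals and lines are strain means. The 7 strains at 6.99 to 7.43 in Pcdhga1 lie at 9.96 to 10.25 in Pcdhga2.

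Given as a description, the correlation of the strain means of the 2 genes was -0.83 among the 12 lower FXLE/LEXF strains and -0.03 among the 7 upper ones. The 12 include LEXF2C/Stm, the highest of them in Pcdhga1 (6.49) and the lowest in Pcdhga2 (10.15), and no value without it was computed. It was 0.33 among the 29 HXB/BXH strains below the gap of that panel, -0.38 among the 17 lower inbred strains and -0.68 among the 8 upper ones, so its sign differed between panels. No correlation is given over both sets together, since it would mostly restate the gap. Among deviations of animals from their strain mean, over all strains, Pcdhga1 and Pcdhga2 had a correlation of 0.06 (n = 192 animals).

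The inbred strains showed a similar layout of Pcdhga1. There were 8 strains at 6.98 to 7.54 (ACI/SegHsd, BDIX/NemOdaMcwi, BUF/MnaMcwi, GK/FarMcwi, LE/Stm, LH/MavRrrc, SR/JrHsd and SS/JrHsd) and 17 at 5.59 to 6.47. Pcdhga2 was at 9.91 to 10.22 in the former and at 10.07 to 10.55 in the latter, so the sets overlap in Pcdhga2. GK/FarMcwi had the lowest strain mean of Pcdhga2, with animals at 9.92, 9.91 and 9.90. In ACI/SegHsd, the animals differed by over 1 log2 unit in Pcdhga1, at 7.14, 8.08 and 6.98.

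In the HXB/BXH strains, Pcdhga1 was at 5.85 to 6.37 in 29 of the 30 strains. The exception was HXB23/Ipcv, with animals at 7.19, 6.58 and 7.1. Its mean of 6.96 lay above those of both progenitors, for which the animals were at 6.65, 6.17 and 6.58 in BN-Lx/Cub and at 5.74 and 5.52 in SHR/OlaIpcv. Pcdhga2 was not low in HXB23/Ipcv, at a mean of 10.49.

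Pcdhga2 varied in the HXB/BXH strains by itself, with an R2 of 0.7 (adjusted p = 4.68e-06, limma). A mixture of 2 clusters was chosen, with 23 strains around 10.22 and 7 around 10.57. The highest strain, HXB13/Ipcv, had animals at 10.68, 10.59 and 10.73. These values exceed those of all progenitor animals, which were at 9.67, 10.34 and 10.20 in BN-Lx/Cub and at 10.27 and 10.26 in SHR/OlaIpcv. In all, 15 of the 30 strains had a mean above both progenitors' means, 14 lay between them and 1 below both. The share of such strains over all genes was not computed.

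Pcdhga10 showed a different pattern, a single low strain. In HXB21/Ipcv its animals were at 8.92, 8.99 and 9.01, whereas the next HXB/BXH strain, BXH9/Cub, had animals at 9.63, 9.68 and 9.38. The progenitors were at 9.22, 9.98 and 9.83 (BN-Lx/Cub) and at 9.75 and 9.53 (SHR/OlaIpcv). All animals of HXB21/Ipcv were thus below all progenitor animals, and the mixture put this strain alone, against the 29 others. The R2 over the HXB/BXH strains was 0.824 (adjusted p = 1.76e-11) and, without HXB21/Ipcv, 0.69 (adjusted p = 2.13e-05, limma). The single isoform row of this gene, NM_001037135.1, had the same lowest strain, at 8.59, 8.71 and 8.75.

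Pcdhga8 also passed within the HXB/BXH strains, with an R2 of 0.666 (adjusted p = 9.34e-05, limma). Its lowest strain of all was HXB23/Ipcv, with animals at 9.61, 9.53 and 9.43, and its highest was LEXF5/Stm, with animals at 9.90 and 10.18. Pcdhga5 had the lowest R2 of the Pcdhg group, 0.387 (adjusted p = 0.418, limma). Its lowest strain, BUF/MnaMcwi at 7.86, and its highest, FXLE13/Stm at 8.49, both had 1 animal.

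The C-type genes Pcdhgc3 and Pcdhgc5 lie at the end of the group. Pcdhgc3 missed the threshold (R2 = 0.467, adjusted p = 0.0584, limma), and passed with batch as a covariate (adjusted p = 0.00305, limma). Pcdhgc5 passed (R2 = 0.478, adjusted p = 0.0369, limma) but not without the animals numbered 1, 2 or 3 (adjusted p = 0.157, 0.448 and 0.0959, limma). Pcdhgc5 was lowest in HXB23/Ipcv, with animals at 11.18, 10.68 and 10.78, and highest in LEXF5/Stm, with animals at 11.70 and 11.87. In 28 of the 30 HXB/BXH strains its mean was above the means of both progenitors (11.05 and 11.04), and in 2 below both. Such strains were not particular to this gene. Over the Pcdhg genes their number ran from 1 (Pcdhga1 and Pcdhga3) over 21 (Pcdhgc3) and 22 (Pcdhga4) to 28. For Pcdhac1, 26 strains lay below both progenitors and 3 above. The progenitor means rest on 3 and 2 animals, and the share over all genes was not computed.

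In the Pcdhb group, Pcdhb3 had the highest R2, 0.691 (adjusted p = 9.43e-10, limma). Its highest strain was LH/MavRrrc, with animals at 7.68, 7.38 and 7.68, and its lowest the LE/Stm animal, at 6.85. Pcdhb2 followed with an R2 of 0.659 (adjusted p = 4.89e-08, limma), and was lowest in SR/JrHsd, at 6.57, 6.44 and 6.44. MWF/Hsd was near the upper end of Pcdhb2, at 7.16, 7.06 and 7.17, while the highest mean, 7.19, was that of the single FXLE13/Stm animal. The animals of SR/JrHsd and MWF/Hsd do not overlap in Pcdhb2, which only describes strains taken from its ends.

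Pcdhb6 was low in 3 inbred strains, LH/MavRrrc, SR/JrHsd and SS/JrHsd. The animals were at 7.45, 7.66 and 7.78 in LH/MavRrrc, at 7.76, 7.91 and 7.84 in SR/JrHsd and at 7.83, 7.97 and 7.86 in SS/JrHsd. The next strain of Pcdhb6, LE/Stm, was at 8.06 and the median of the strain means was 8.35. Its R2 over all strains was 0.632 (adjusted p = 8.07e-07), and over the inbred strains 0.801 (adjusted p = 5.25e-07) with LH/MavRrrc and 0.72 (adjusted p = 0.000261, limma) without it.

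The same 3 strains were the highest in Pcdhb8, a gene singled out here after its values were seen. Its animals were at 7.75, 7.64 and 7.65 in LH/MavRrrc, at 7.44, 7.56 and 7.61 in SR/JrHsd and at 7.44, 7.42 and 7.53 in SS/JrHsd. Pcdhb8 was lowest in LEW/Crl, at 7.01, 6.82 and 7.03, and its R2 over all strains was 0.605 (adjusted p = 1.72e-05, limma). The strain means of Pcdhb6 and Pcdhb8 had a correlation of -0.4 over the 74 strains, and the deviations of animals from their strain mean one of 0.09. The first value includes the 3 strains by which Pcdhb8 was singled out, and no value without them was computed.

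**Figure D3:**
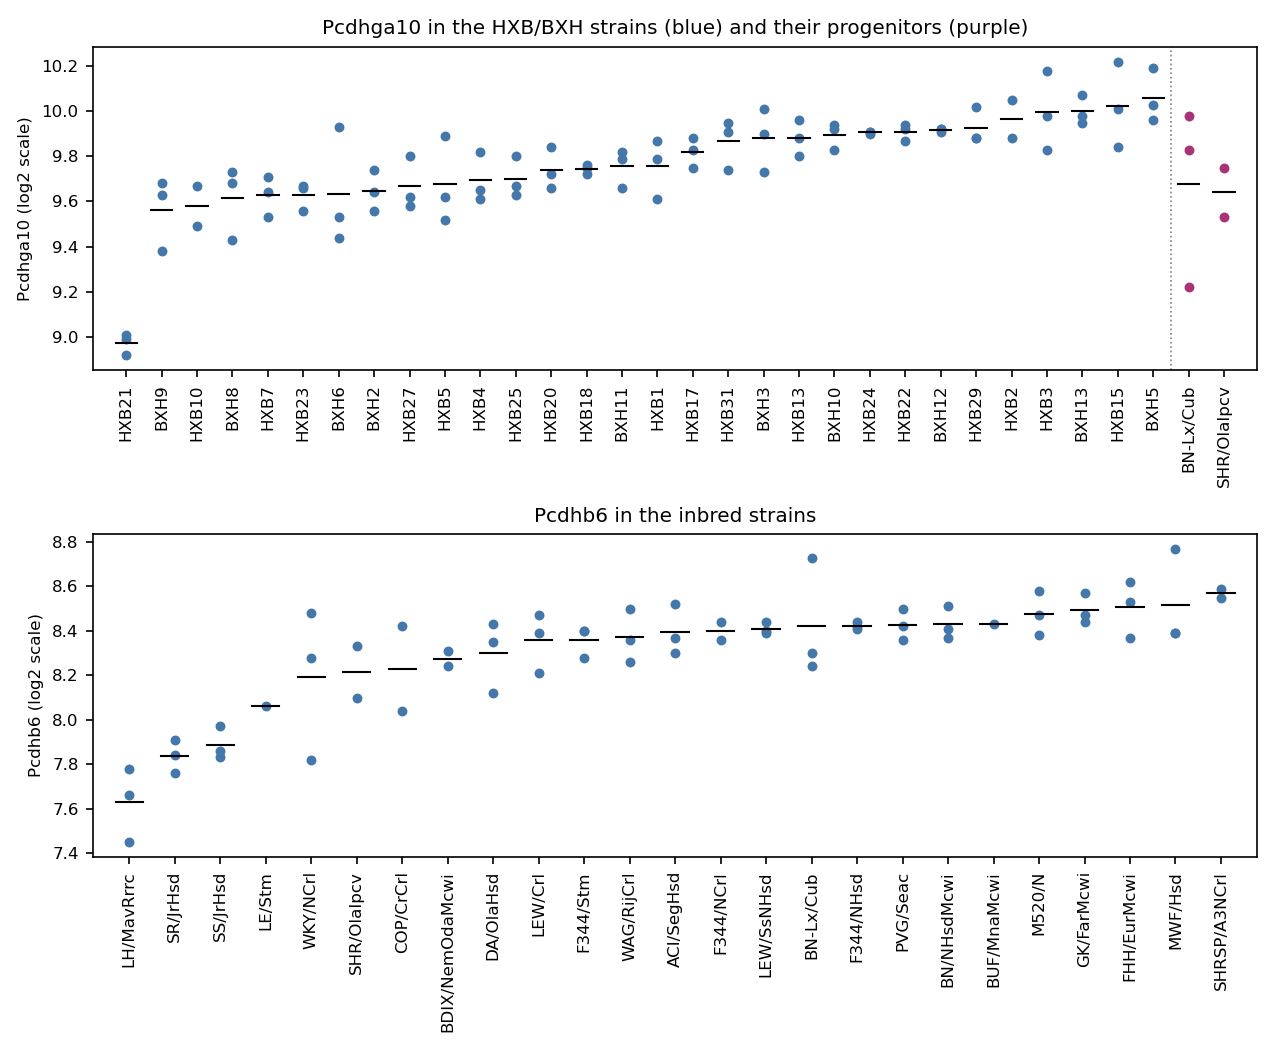
RNA expression level (y axis, log2 scale) of Pcdhga10 in each animal of the 30 HXB/BXH strains and their progenitors (top) and of Pcdhb6 in the 25 inbred strains (bottom), with strains on the x axis ordered by their mean. Points are animals and lines are strain means. HXB21/Ipcv lies at 8.92 to 9.01 in Pcdhga10, and LH/MavRrrc at 7.45 to 7.78 in Pcdhb6.

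Pcdhb9 differed between strains with an R2 of 0.605 (adjusted p = 3.5e-05, limma), from 8.79 and 8.77 in BDIX/NemOdaMcwi to 9.40, 9.31 and 9.19 in BN-Lx/Cub. Its call was lost without the animals numbered 1 or 2 (adjusted p = 0.241 and 0.159, limma). At the other end, Pcdhb1 (R2 = 0.313, adjusted p = 0.898) and Pcdhb14 (R2 = 0.403, adjusted p = 0.346, limma) did not pass. With batch as a covariate, Pcdhb14 passed (adjusted p = 0.0268, limma). Pcdhb1 had a mean of only 1.85 on the deposited scale and the smallest span of strain means.

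Neither Pcdha row passed over all strains. Pcdha4 had an R2 of 0.478 (adjusted p = 0.0778) and Pcdhac1 one of 0.453 (adjusted p = 0.0932, limma). The strain means of Pcdha4 spanned only 12.35 to 12.67. With batch as a covariate, Pcdha4 passed (adjusted p = 0.0137, limma). Pcdhac1, the C-type gene of the group, passed within the FXLE/LEXF strains (R2 = 0.772, adjusted p = 0.0112, limma), from 7.72 and 7.59 in FXLE18/Stm to 8.29 and 8.40 in LEXF6B/Stm.

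Within the panels separately, 10 of 36 members passed in HXB/BXH (19.1% of all genes), 3 in FXLE/LEXF (4.61% of all genes) and 19 in the inbred strains (19.3% of all genes). The 3 members in FXLE/LEXF were Pcdhac1, Pcdhga1 and Pcdhga2. With batch as a covariate within the panel, the counts were 18 in HXB/BXH, when 32.1% of all genes passed, 3 in FXLE/LEXF, when 5.09% did, and 20 in the inbred strains, when 16.8% did. The median R2 was 0.455 over the members and 0.409 over all genes in HXB/BXH, 0.49 and 0.516 in FXLE/LEXF, and 0.582 and 0.449 in the inbred strains. With no strain effect, an R2 of 0.333, 0.429 and 0.369 is expected in the 3 panels, in the same order. Mixtures of more than 1 cluster were chosen for 6 of 36 members in HXB/BXH (11.7% of all genes) and for 6 in FXLE/LEXF (14.7% of all genes).

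Members low in single strains were counted next. A strain mean at least 1 log2 unit under the median of the strain means was found in 0 of 2664 pairs of member and strain, against 0.0573% of the pairs of all genes. This threshold cannot mark a member that is low in every strain, such as Pcdhb1. At 0.5 log2 units, a threshold added after the values were seen, there were 12 such pairs of 3 members, Pcdhga1, Pcdhga10 and Pcdhb6, where 8.5% of all genes had such a strain. In the other direction, 11 pairs lay at least 1 log2 unit above the median, all of them for Pcdhga1, and 1.79% of all genes had such a strain. In the transcript table, 21 of 2886 pairs of isoform and strain lay at least 1 log2 unit under the median, against 7.53% of the pairs of all transcripts. They came from 4 isoforms, of which the Pcdha4 isoform XM_039096548.1 gave most. The others were the single isoform rows of Pcdhga10 (NM_001037135.1, -1.09 in HXB21/Ipcv) and Pcdhga1 (NM_001037140.1, -1.35 in FXLE13/Stm, n = 1), and the Pcdha4 isoform XM_017600825.2 (-1.27 in ACI/SegHsd).

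The progenitors of the recombinant inbred strains were compared within the fit over all strains. Between BN-Lx/Cub (n = 3) and SHR/OlaIpcv (n = 2), 3 of 36 members differed, where 4.51% of all genes did. All 3 were Pcdhb genes higher in BN-Lx/Cub, as were 2.63% of all genes. An unadjusted p under 0.05 was reached by 11 members and by 19.2% of all genes. Pcdhb10 was at 8.62, 8.30 and 8.11 in BN-Lx/Cub and at 7.95 and 7.88 in SHR/OlaIpcv. Pcdhb11, its neighbour, was at 8.54, 8.11 and 8.20 against 7.90 and 7.86. Pcdhb16l was at 9.22, 8.83 and 8.84 against 8.68 and 8.55. For these 3 genes, which were picked by this contrast, the animals of the strains did not overlap, and this adds no support to the calls.

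The differences were 0.43 for Pcdhb10 (SE 0.13, adjusted p = 0.0391), 0.41 for Pcdhb11 (adjusted p = 0.0391) and 0.35 for Pcdhb16l (SE 0.11, adjusted p = 0.0381, limma contrast). These calls depended on which animals were kept. Without the animals numbered 3 all 3 passed, with differences of 0.54 for Pcdhb10 (adjusted p = 0.00589), 0.45 for Pcdhb11 (adjusted p = 0.0317) and 0.41 for Pcdhb16l (adjusted p = 0.017, limma). Without the animals numbered 1, of which the BN-Lx/Cub animal was the highest in all 3 genes, the difference was 0.32 for Pcdhb10 (adjusted p = 0.783), 0.3 for Pcdhb11 (adjusted p = 0.79) and 0.28 for Pcdhb16l (adjusted p = 0.749, limma). The SHR/OlaIpcv animals are numbered 1 and 4, so that fit had 1 SHR/OlaIpcv animal, which is assumed to vary like the other strains. Without the animals numbered 2 Pcdhb11 passed, with a difference of 0.49 (adjusted p = 0.0377, limma), while Pcdhb10 (0.45, adjusted p = 0.0895) and Pcdhb16l (0.41, adjusted p = 0.051, limma) did not. With the replicate number as a block the differences were 0.47, 0.37 and 0.28 (adjusted p = 0.0632, 0.156 and 0.276, limma), and the count of members was 0, with 12 at an unadjusted p under 0.05, when 1.97% of all genes passed and 13.4% were at an unadjusted p under 0.05. With batch as a covariate the count was 6, when 7.51% of all genes passed, and all 3 differences were larger. That fit also kept 1 library per animal, where the main fit averaged 12 and 6 libraries of the SHR/OlaIpcv animals. The parts of these changes cannot be told apart. Pcdhb11 (0.6, adjusted p = 0.049) and Pcdhb16l (0.62, adjusted p = 0.0217) passed and Pcdhb10 (0.52, adjusted p = 0.0978, limma) did not. With every library as its own unit, which treats repeat libraries of SHR/OlaIpcv animals as separate animals, the count was 15, when 29.1% of all genes passed. The 2 isoform rows of Pcdhb10 differed by 0.05 and 0.74, neither past the threshold (adjusted p = 0.999 and 0.24, limma). In the older tables, which use Ensembl gene models, the differences were smaller or turned. That of Pcdhb10 was 0.14 in version 6 and -0.2 in version 5, and that of Pcdhb11 was 0.15 and 0.13. None of these passed the threshold (adjusted p = 0.332 to 0.778, limma). The strain means of Pcdhb10 in those tables had a correlation of 0.75 (version 6) and 0.47 (version 5) with those here. Pcdhb16l was not compared there. The SHR/OlaIpcv animals also changed, from numbers 1 and 4 here to 1, 3 and 4 in version 6 and to 1, 2 and 3 in version 5. Pcdhga1 had a larger difference, 0.83 (95% interval 0.24 to 1.43), but a larger spread, and did not pass (adjusted p = 0.0924, limma).

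Between F344/Stm (n = 3) and LE/Stm (n = 1, the animal with high liver genes), 0 of 36 members differed by the limma contrast, where 0.796% of all genes did, and 5 had an unadjusted p under 0.05, as had 12.8% of all genes. With 1 animal in an arm, few differences can pass, so this count does not show that the members did not differ. Pcdhga1 was lower in F344/Stm, with a difference of -1.23 (95% interval -1.99 to -0.48, adjusted p = 0.144, limma). Pcdhga2 was higher, by 0.51 (95% interval 0.19 to 0.82, adjusted p = 0.164, limma). With only 1 LE/Stm animal, the contrast borrows the spread of the other strains.

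**Figure D4:**
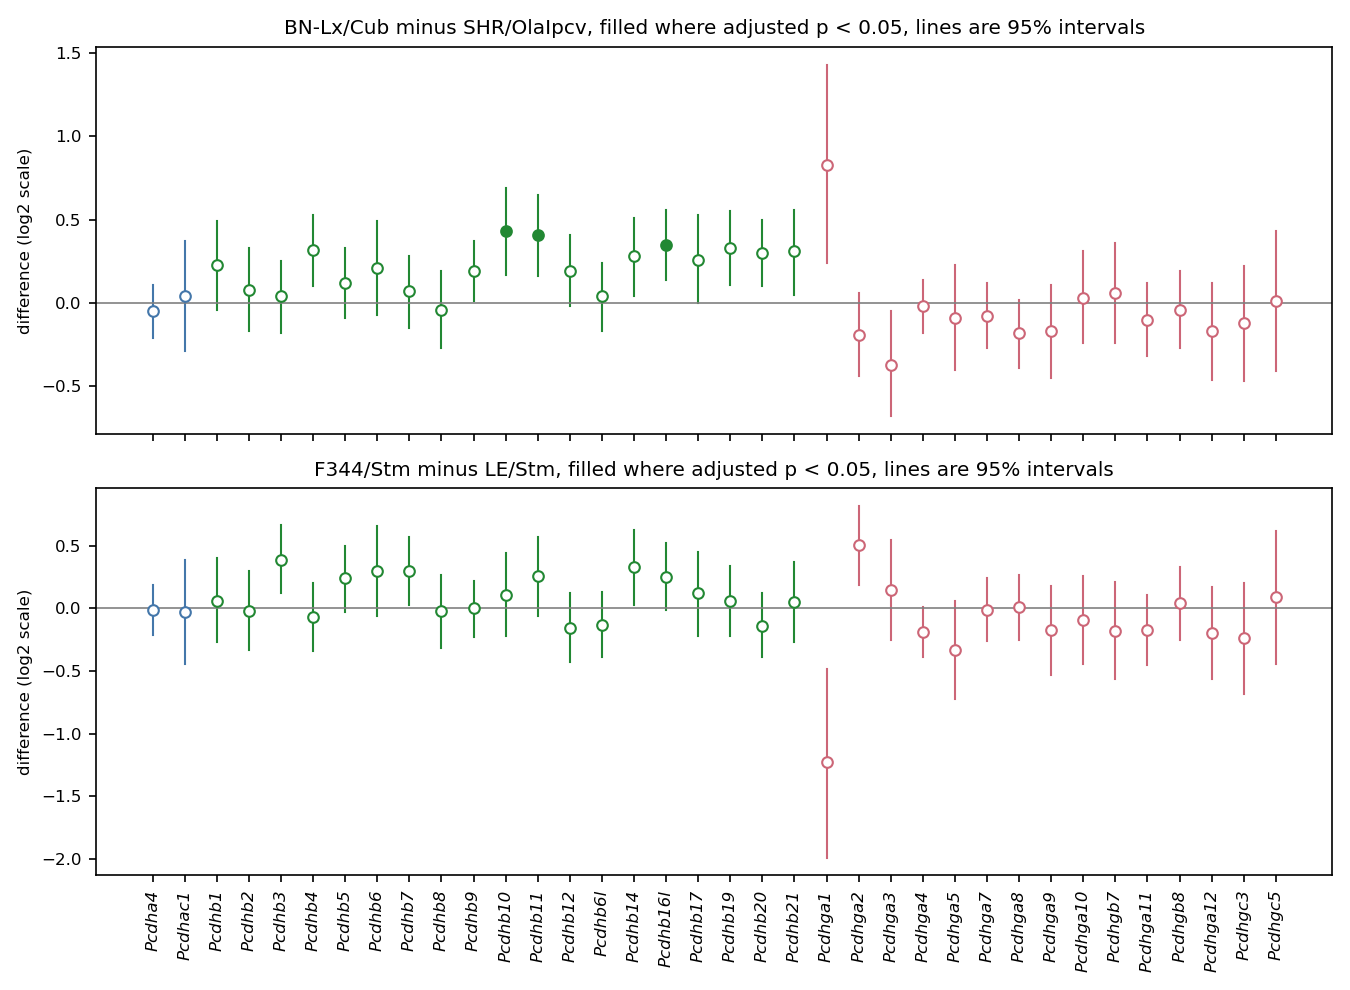
Difference of each of the 36 members (x axis, ordered as by chromosome) between progenitor strains (y axis, log2 scale), BN-Lx/Cub minus SHR/OlaIpcv above and F344/Stm minus LE/Stm below, with 95% intervals from the fit over all strains. Filled points passed at an adjusted p under 0.05, which only Pcdhb10, Pcdhb11 and Pcdhb16l in the upper plot did.

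Correlations between members were computed over the 74 strain means and, separately, over the deviations of 192 animals from their strain mean. They describe these data and carry no test, since members share libraries and constant exons, and reads may have been divided between alike genes. Within the Pcdhb group, the median over 171 pairs was 0.23 for strain means and 0.26 for deviations. Within the Pcdhg group (105 pairs) it was 0.24 and 0.45, and all 105 pairs were positive for deviations. The 2 Pcdha rows had a correlation of 0.47 and 0.5.

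Between groups, the median was -0.04 for strain means and -0.07 for deviations between Pcdhb and Pcdhg (285 pairs), 0.2 and 0.31 between Pcdha and Pcdhb (38 pairs), and 0.1 and 0.05 between Pcdha and Pcdhg (30 pairs). The median of members with the other 20823 genes was 0 in both cases, with a median size of 0.14 and 0.16. With batch corrected over the 56 strains whose batches are linked by shared strains, the medians of strain means were 0.46 within Pcdhb, 0.44 within Pcdhg, -0.19 between Pcdhb and Pcdhg and -0.2 between Pcdha and Pcdhg. Without the correction, the same 56 strains gave 0.32, 0.26, -0.07 and 0.04.

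Some genes that lie close together were closely correlated. Pcdhb16l and Pcdhb19 had the highest value over strain means, 0.75 (0.65 for deviations), followed by Pcdhb17 and Pcdhb19 with 0.73 and 0.64. Pcdhb10 and Pcdhb11, the neighbours called between the HXB/BXH progenitors, had 0.7 and 0.53. For deviations the highest values were those of Pcdhga12 with Pcdhgc5, 0.74, and of Pcdhgc3 with Pcdhgc5, 0.7. Other neighbours had low values for deviations. Pcdhb1 and Pcdhb2 had 0.49 over strain means but 0.05 for deviations, Pcdhb3 and Pcdhb4 had 0.07 and 0.04, and Pcdhb8 and Pcdhb9 had -0.21 and 0.08. Pcdhga1 and Pcdhga2 had 0.06 for deviations, and their strain means are described by sets of strains above. Across the Pcdhb group, neighbours had a median of 0.33 over strain means, pairs 2 to 4 places apart 0.32 and pairs 5 or more places apart 0.21. In the Pcdhg group these medians were 0.29, 0.24 and 0.22.

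**Figure D5:**
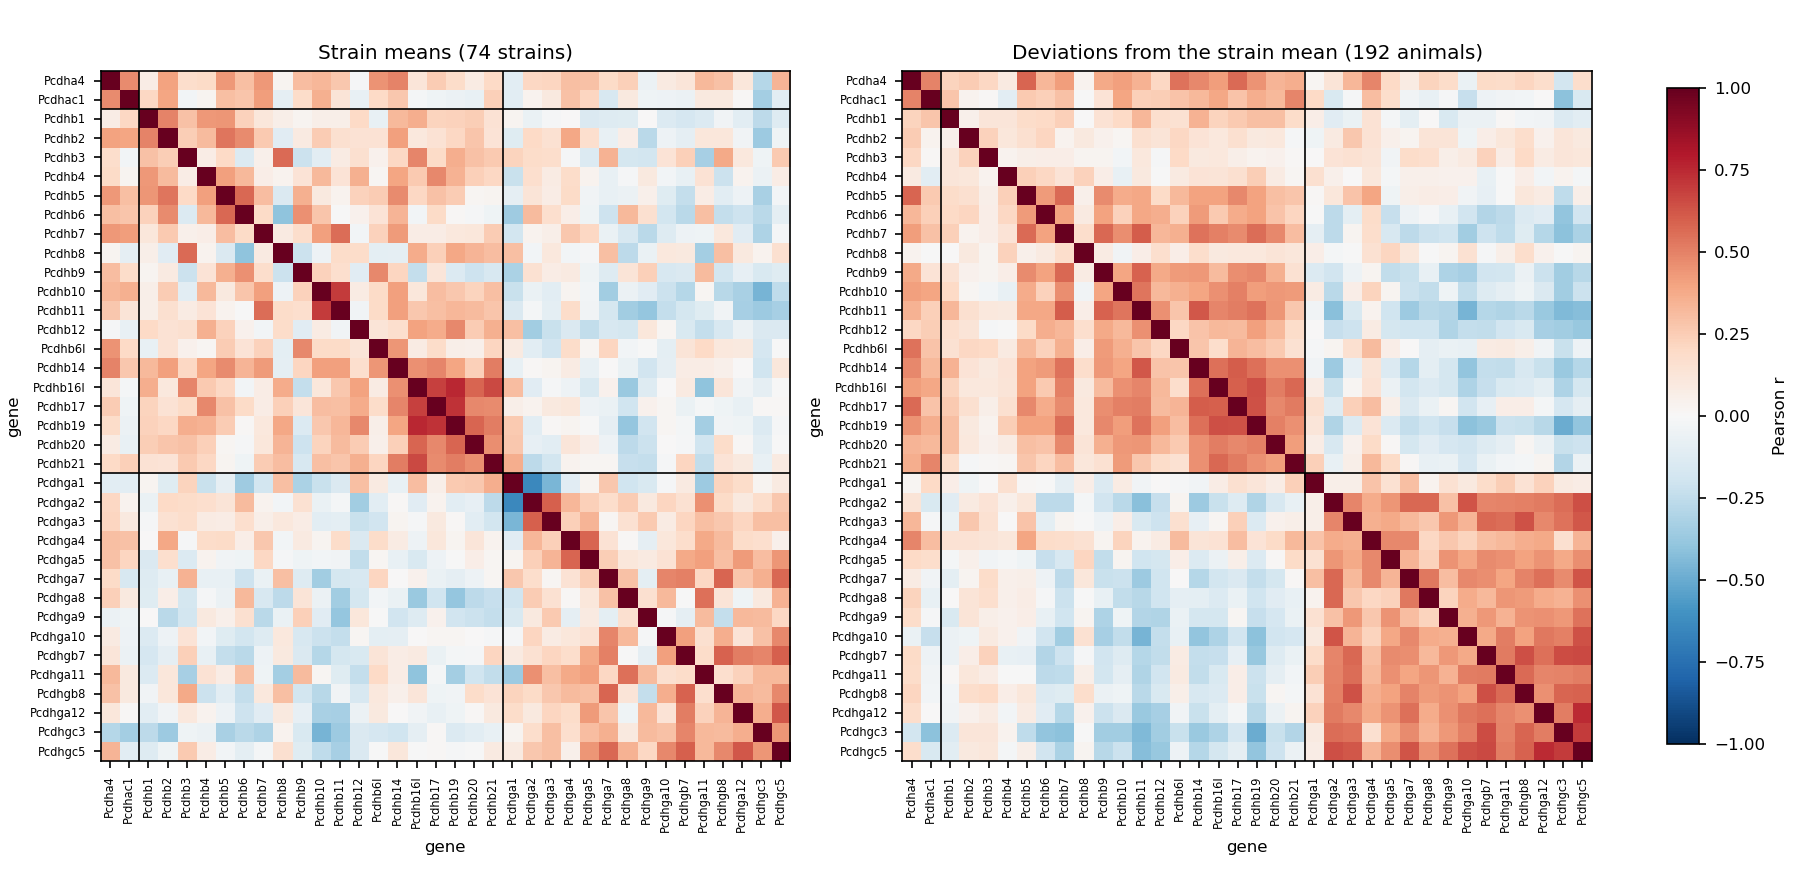
Pearson correlation (colour, from -1 to 1) of each pair of the 36 members over 74 strain means (left) and over deviations of 192 animals from their strain mean (right), with genes on both axes in chromosome order and lines between the Pcdha, Pcdhb and Pcdhg groups. The Pcdhg block on the right is positive throughout, with a median of 0.45, and the block of Pcdhb with Pcdhg has a median of -0.07.

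Levels of some cell type markers moved with these groups, and those of others did so little. For deviations of animals from their strain mean, the mean of the Pcdhg genes had a correlation of 0.65 with the mean of the 5 neuronal markers, -0.48 with that of 3 Purkinje cell markers and 0.44 with that of 3 endothelial markers. The mean of the Pcdhb genes had a correlation of -0.61 with 4 microglial, -0.5 with 3 endothelial, -0.45 with 4 astrocyte and -0.35 with 4 oligodendrocyte markers, and -0.19 with the neuronal markers. With the marker lists not named here, the values ran from -0.27 to 0.28 for Pcdhg and from -0.3 to 0.09 for Pcdhb. The means of both groups had a correlation of -0.21 with each other. Many markers also passed the test of a strain effect, which 37.3% of all genes passed. These were 4 of 4 microglial, 3 of 3 blood, 3 of 3 olfactory bulb and 5 of 5 liver markers. The liver count includes the single LE/Stm animal, at a mean of 19.28 against a median of 8.08, and is not given without it. Further, 3 of 4 astrocyte, 3 of 4 oligodendrocyte, 2 of 3 endothelial, 1 of 3 choroid plexus and 1 of 5 neuronal markers passed. No Purkinje cell, serotonergic or olfactory sensory marker did. The part of cell type shares in the strain effects of members and in the correlations between members was not tested.

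Where a gene had a single isoform row, the strain means of row and gene had a correlation of 0.99 or 1, except for Pcdhb5 (0.59) and Pcdhb21 (0.22). Of 39 isoforms 23 passed the test of a strain effect, where 13.9% of all transcripts did, and the median R2 was 0.569 against 0.412 over all transcripts. Of the 28 isoforms of genes other than Pcdha4, 19 passed. Leaving out the animals numbered 1, 2 or 3 left 8, 7 and 9 of the 39, when 5.02%, 4.83% and 7.62% of all transcripts passed. Between progenitors, 0 isoforms differed (limma contrast) between BN-Lx/Cub and SHR/OlaIpcv, where 0.791% of all transcripts did, with 6 at an unadjusted p under 0.05 (8.2% of all transcripts). Between F344/Stm and LE/Stm 0 isoforms differed (limma contrast), where 0.318% of all transcripts did, with 7 at an unadjusted p under 0.05 (13% of all transcripts).

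Pcdha4 as a whole did not pass, but 4 of its 11 isoforms did, where 13.9% of all transcripts passed. These isoforms carry only accession numbers in this annotation, and which first exon each one uses was not looked up here. The clearest was XM_017600825.2 (R2 = 0.61, adjusted p = 4.56e-05, limma), which was low in ACI/SegHsd, at 6.98, 6.99 and 7.1, against a median of 8.30 over strains. The next strains were BUF/MnaMcwi at 7.45 (n = 1) and LH/MavRrrc at 7.92, and the highest was M520/N at 8.75. The other 3 were NM_053933.1 (R2 = 0.6), XM_017600815.2 (R2 = 0.595) and XM_017600817.2 (R2 = 0.543). Another, XM_039096548.1, did not pass (R2 = 0.388, adjusted p = 0.554, limma), although its strain means ran from 2.69 in LE/Stm (n = 1) to 7.83 in LH/MavRrrc. Over the 55 pairs of Pcdha4 isoforms the median correlation was 0.09 for strain means, from -0.51 to 0.59, and 0.12 for deviations.

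Genes around the members are given for comparison, ordered by the reference gene table, and their counts can be read against the 37.3% of all genes that passed. The 3 tested genes that lie between members, Taf7, Slc25a2 and LOC103694196, did not pass the limma F-test (0 of 3, also at an unadjusted p under 0.05). LOC108348201, which carries the symbol Pcdhb15 in that table, is left out of this count and passed (R2 = 0.568, adjusted p = 0.00042, limma). Of the 10 genes before Pcdha4, 1 passed, Cd14 (R2 = 0.49, adjusted p = 0.0243, limma), which encodes a receptor of innate immunity. Of the 10 genes after Pcdhgc5, 3 passed, namely Dele1 (R2 = 0.718), Pcdh12 (R2 = 0.665) and Fchsd1 (R2 = 0.526).

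Other genes of the pathway were taken from lists, again beside 37.3% of all genes. Of 12 non-clustered protocadherins, which are separate single genes of the same family, 6 passed over all strains, with the highest R2 in Pcdh12 (0.665), Pcdh18 (0.578) and Pcdh15 (0.524). Of 22 measured regulators of promoter choice, such as CTCF, cohesin and DNA methylation genes, 2 passed, Setdb1 (0.559), a histone methyltransferase, and Pds5b (0.512), a cohesin factor. Of 20 cytoplasmic and membrane partners 5 passed, among them Cyfip2 (0.545), a subunit of the WAVE complex, and Ptk2b (0.534), a kinase. Between BN-Lx/Cub and SHR/OlaIpcv, Pcdh12 was lower in BN-Lx/Cub, with a difference of -0.86 (adjusted p = 2.26e-05, limma), and Pcdh11x was higher, by 0.65 (adjusted p = 0.0114, limma). Of the regulators, Nipbl, the cohesin loader, was higher by 0.56 (adjusted p = 0.0201) and Stag2, a cohesin subunit, by 0.67 (adjusted p = 0.0441, limma). These 4 were all the calls of the lists in this contrast, where 4.51% of all genes differed.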

How the data were processed

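Whole-brain total RNA of naive rats was sequenced by the authors. For an earlier version of the tables, the authors state that they trimmed reads with cutadapt, removed ribosomal reads and aligned the rest with HISAT2 to strain-specific genomes. The authors estimated counts by RSEM, removed 1 RUV factor and applied the regularized log of DESeq2. The submitters' processing notes name cutadapt 1.9.1, Bowtie2 2.3.4.3 and 2.4.5, HISAT2 2.1.0 and 2.2.1, RSEM 1.3.1 and 1.3.3, StringTie 1.3.5 and 2.2.1, and the genome rn6. The deposited values of the version 7.1 tables, which were used here, are on a log2 scale by their range and library medians (8.18 to 8.42). Their own steps are not given in the sources used here. They hold no counts, so sequencing depth is unknown, no counting interval was computed, and the number of animals limits the precision.

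Repeat libraries (same strain, same replicate number) were taken as 1 animal and averaged, spike-ins were left out, and no filter or pseudocount was applied. Fits across panels with batch (or title batch number) as a covariate instead kept 1 library per animal, of the lowest batch number. Strain effects were tested with the moderated F-test of limma 3.58.1 (R 4.3.3) over strains on all genes, and progenitors by contrasts in the same fit, with Benjamini-Hochberg adjustment at 5%. Clusters of strain means were chosen among 1 to 3 by mclust 6.1.1. The scripts were tested on simulated data. Members and lists were chosen with earlier results of these data known. Genes named with values were, in each group, the 4 members with the highest and the 2 with the lowest R2, the C-type genes, members called between progenitors and members low in single strains. Nothing states whether animals came from separate litters. No pairing by replicate number was seen. The median correlation of deviations of animals from different strains was 0.012 with the same number and -0.007 with different numbers. The same measure was -0.022 within a batch and 0 between batches, although more genes passed with batch as a covariate. It therefore cannot exclude pairing, and replicate number went partly with batch. The 17 batches fall into 3 sets that share no strain, so batch corrections of strain means used the largest set. The alternatives tried are given with the closing limits.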

Additional observations from a re-analysis of the deposited data

How the results depend on the processing

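Of the called values, 1 reversed its direction under the alternatives run. The difference of Pcdhb10 between BN-Lx/Cub and SHR/OlaIpcv, 0.43, was -0.2 in version 5 (adjusted p = 0.332, limma). That version uses Ensembl gene models and partly other SHR/OlaIpcv animals, so the 2 values do not measure the same thing. The median correlation of Pcdha with Pcdhg, which carries no test, changed sign with batch corrected. For results that answer a comparison, 76 recomputed values kept their side of the threshold, their count within 1.5 times or their value within the replicate spread, and the others are given here. In the values below the cause was not tested, except that leaving out animals, strains or genes leaves less to test.

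The median R2 over members (0.546) was 0.594 with batch and 0.576 with the batch number of the sample title, 0.455 in HXB/BXH, 0.49 in FXLE/LEXF, 0.582 in the inbred strains, 0.501 in strains with 3 animals (chosen after seeing the data) and 0.65 to 0.683 leaving out each replicate number, where 0.539 to 0.554 is expected with no strain effect (0.372 over all animals). The count of members with a strain effect (28 of 36) was 14 to 18 leaving out each replicate number (14.4% to 29.1% of all genes). It was 18 over the 22 members above the median mean, where 34.3% of the genes above it passed. In HXB/BXH it was 10 (19.1% of all genes), or 18 with batch as a covariate (32.1%), added after seeing the data. In FXLE/LEXF it was 3 (4.61%). Isoforms (23) fell to 7 to 9 leaving out each replicate number (4.83% to 7.62% of all transcripts).

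The count between BN-Lx/Cub and SHR/OlaIpcv (3) was 6 with batch (7.51% of all genes), 5 with the batch number of the title (2.87%), 15 with every library as its own unit (29.1%), 1 above the median mean (4.5%), 0 to 4 leaving out each replicate number (0.992% to 6.19%) and 0 with the replicate block (1.97%), which changed no other count of calls by over 1.5 times. Whether the numbers pair the animals is not known, so the block result is given as a value. Only 9 members share a symbol with version 6 and 8 with version 5. Over these, the count between BN-Lx/Cub and SHR/OlaIpcv went from 2 to 0 in version 6 (2.19% of all genes) and from 2 to 0 in version 5 (4.37%). The count between F344/Stm and LE/Stm went from 0 to 1 in version 5 (Pcdhb3, 0.3, adjusted p = 0.017, limma). There 3.69% of all genes passed, against 0.796% in version 7.1, and LE/Stm has 2 other animals (numbers 1 and 3). Over the shared members, the median R2 went from 0.514 to 0.545 in version 6. The only shared Pcdhg gene was Pcdhga5, in version 6. The median correlation of the shared Pcdhb genes with it went from -0.04 to -0.16. Pcdhga1, Pcdhga2 and Pcdhga10 were not shared, so they were not compared with the older tables. The difference of Pcdhb10 was 0.14 in version 6 and that of Pcdhb11 (0.41) was 0.15 in version 6 and 0.13 in version 5, a comparison of single genes added after seeing the data. The SHR/OlaIpcv animals are numbers 1 and 4 in version 7.1, 1, 3 and 4 in version 6, and 1, 2 and 3 in version 5.

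Median correlations moved as follows. Within Pcdha (0.47) it was 0.61 in HXB/BXH, 0.41 in FXLE/LEXF and 0.56 in the strains of linked batches, a set added after seeing the data. Between Pcdha and Pcdhb (0.2) it was 0.31 for deviations, 0.36 with batch, 0.3 in the strains of linked batches and 0.31 in FXLE/LEXF. Between Pcdha and Pcdhg (0.1) it was -0.2 with batch. Within Pcdhb (0.23) it was 0.46 with batch, and between Pcdhb and Pcdhg (-0.04) -0.19 with batch. Within Pcdhg (0.24) it was 0.27 by Spearman, 0.45 for deviations, 0.44 with batch, 0.38 in HXB/BXH, 0.33 in FXLE/LEXF and 0.1 in the inbred strains. Members low in a strain went from 0 to 3 at 0.5 log2 units.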
